A study of Canis lupus familiaris with 33 samples.

Results

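The regions described here are short stretches of methylated DNA on the dog autosomes that were captured well above the median peak in every tissue examined. Peaks from 11 tissue lists were merged into 472152 union regions, of which 450785 lay on autosomes 1 to 38. A region was a member when it was under 5000 bases wide, held a peak in all 11 lists, and reached at least 2 times the median fold of the list in each of them. The rule was met by 5035 regions, which are 4.26% of the 118319 autosomal regions under 5000 bases with a peak in all tissues. The other 113284 of these shared short regions served as the comparison. The members were chosen by their measured folds, so folds of members are given as a description and were not tested, and nothing is read from their share.

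DNA came from 2 brain tissues (cerebrum and cerebellum), 4 digestive ones (stomach, colon, liver and pancreas), and from lung, kidney, spleen, ovary and mammary gland of beagles in good health, euthanized with alfaxalone and KCl. No genotype, age or other treatment is used here. The labels describe 3 dogs, 1 male and 2 female, while the titles carry 4 animal identifiers. Each tissue had 2 MBD libraries and 1 input library, 33 libraries in all, and both MBD libraries of a tissue share a single peak list, so no spread between animals can be computed and the read depth is unknown. Colon, mammary gland, ovary and stomach had 2 MBD libraries labelled female, and the other 7 tissues had 1 female and 1 male library. The input came from the animal jj8 in 7 tissues. In ovary, pancreas, mammary gland and kidney it came from the animal that ends the title MBD_input_KI_679, called the kidney input animal below. In colon and stomach the MBD titles carry jj82 beside the kidney input animal, so by the titles the jj8 input of these tissues comes from neither MBD animal. The animal jj8 is labelled male in its MBD libraries and female in its input libraries. Tissues were taken whole, so a region methylated in fewer cells cannot be told apart from one methylated less in all cells, and the labelled tissue could not be checked by markers from methylation peaks alone.

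In MBD-seq, sheared DNA (fragments of about 300 bases here) is pulled down with a protein domain that binds methylated CpG sites, and what it holds is sequenced beside untreated input. Capture grows with the number of methylated CpG sites on a fragment, so a strong peak needs CpG sites that are both close together and methylated. In these libraries the late, high-salt elution steps were sequenced, which favours fragments that bind the beads tightly. In mammals most CpG sites outside active promoters and enhancers are methylated in all somatic cells, and methylated sites are lost by mutation over time, so CpG-dense sequence that is methylated in every tissue makes up a small part of the genome. Such regions are known from repeats, from gene bodies and chromosome ends rich in CpG, and from promoters silent outside the germ line. Which of these the members belong to was not analysed here.

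The strength of a region in a tissue is given below as its relative fold, the highest fold of the tissue's peaks in the region divided by the median fold of the tissue's list. The list medians ran from 6.19 in lung to 8.73 in stomach, so the threshold of the rule corresponded to a fold of 12.4 in lung and 17.5 in stomach. Taken alone, the threshold was passed by 19.6% of the shared short regions in ovary and 35.1% in lung. It was passed by 27.5% in cerebellum and in cerebrum, 27.8% in pancreas, 29.7% in liver, 31.6% in stomach, 31.9% in mammary gland, 32.0% in kidney, 32.4% in spleen and 32.5% in colon. No list was passed by 49893 of the 118319 regions (42.2%), and exactly 1 list by 13317 (11.3%). The counts fell to 4011 regions that passed in 5 lists and rose again to 7463 in 9 lists and 7875 in 10 lists. Among the 7875 regions that passed in all lists but 1, ovary was the tissue below the threshold in 3110 (39.5%), cerebellum in 1412 (17.9%), liver in 1175 (14.9%) and cerebrum in 889 (11.3%). Lung was the missing tissue in 45 and mammary gland in 55. Without ovary in the rule, 8148 regions were members, and without any other single tissue 5080 (lung) to 6453 (cerebellum).

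Most members sat close above the threshold in their weakest tissue. The relative fold in the lowest tissue had a median of 2.16, with 25% of the members under 2.07 and 10% over 2.44. In 1752 members (34.8%) it was under 2.1, and in 327 (6.49%) it was at least 2.5. The 3 members nearest to the threshold, chr7:39301344-39301865 (lowest in ovary), chr2:65015591-65016941 (cerebrum) and chr27:29253674-29254695 (stomach), had a relative fold of 2.0002 to 2.0003 in that tissue. The 3 regions just outside it, chr1:78703494-78705802, chr1:120061432-120064641 and chr12:72413125-72414439, had 1.9999 in liver, their lowest tissue. The middle tissue of a member had a median relative fold of 3.22 and the highest tissue one of 5.24. In the other shared short regions the corresponding medians were 0.815 in the lowest tissue, 1.40 in the middle one and 2.13 in the highest.

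The tissues differed in how far the members rose above their lists. The median relative fold of the members was 4.91 in mammary gland (middle 50% of members from 3.86 to 5.86) and 4.49 in lung (3.73 to 5.20). It was 3.62 in colon, 3.46 in spleen, 3.42 in stomach, 3.41 in kidney and 3.06 in pancreas. The brain tissues followed with 2.83 in cerebrum and 2.78 in cerebellum, then liver with 2.73 and ovary with 2.31 (2.15 to 2.51). In the deposited unit, the median fold of the members was 33.9 in mammary gland, 29.8 in stomach, 29.5 in colon, 27.7 in lung, 24.3 in pancreas, 22.6 in spleen, 22.4 in kidney, 19.5 in liver, 18.8 in cerebellum, 17.6 in cerebrum and 15.1 in ovary. In the box plot by tissue, the middle 50% of the members was narrow in ovary, and in mammary gland and lung it was wide. The highest member had 6.24 in ovary, 11.0 in mammary gland and 11.6 in lung. The medians of spleen, stomach and kidney were closer to each other than the middle 50% of the members of any of them was wide, and the same held for cerebrum, cerebellum and liver.

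**Figure D1:**
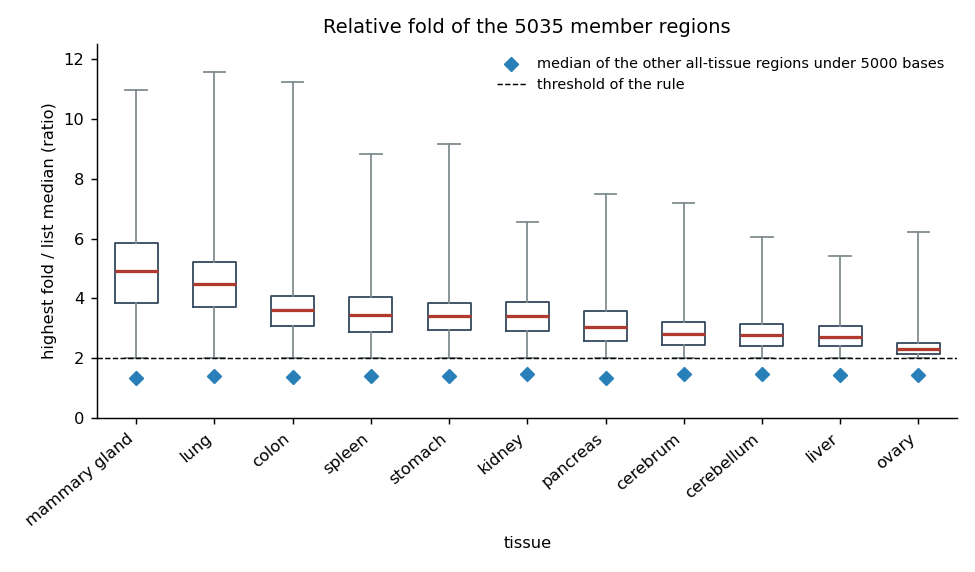
Relative fold (highest fold in the region divided by the list median, a ratio) of the 5035 members in each tissue; boxes hold the middle 50% of members with the median as a red line, whiskers reach the lowest and highest member, diamonds are the medians of the other shared short regions, and the dashed line is the threshold of 2. Medians run from 4.91 in mammary gland to 2.31 in ovary, while the diamonds lie between 1.36 and 1.48.

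Ranked within each region, mammary gland had the highest relative fold in 2834 of the 5035 members (56.3%) and lung in 1530 (30.4%). Spleen was highest in 212, colon in 139, kidney in 99, pancreas in 81, stomach in 68, cerebrum in 36, liver in 25, cerebellum in 11 and ovary in 0. The lowest tissue was ovary in 2267 members (45.0%), liver in 660 (13.1%), cerebellum in 599 (11.9%) and cerebrum in 544 (10.8%). In the other shared short regions ovary was lowest in 13.4%, liver in 9.31%, cerebellum in 15.1% and cerebrum in 7.40%. Mammary gland held 1 of the first 3 ranks in 82.2% of the members and lung in 78.8%, and ovary held 1 of the last 3 ranks in 86.9%. In the other shared short regions the highest tissue was spread more evenly: cerebellum was highest in 16.4% of them, mammary gland in 13.6%, lung in 11.7% and ovary in 10.9%.

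The lists differed in how far their upper folds lay above the median. The fold at the 90th percentile of a list was 3.20 times its median in mammary gland, 3.13 times in lung, and 1.89 times in ovary. Over the 11 tissues, Spearman's rho between this ratio and the median relative fold of the members was 0.973, a description of values that come from the same folds, which the rule also used. When each fold was replaced by its percentile in its own list, mammary gland was highest in 6.08% of the members and lung in 5.74%. On that scale cerebellum was highest in 14.4%, ovary in 13.7% and cerebrum in 11.7%, and liver was the lowest tissue most often, in 15.5%. The lists of ovary (370761 peaks), cerebellum (359065) and cerebrum (311374) were also the longest, and that of colon (260977) the shortest. Spearman's rho between the number of peaks and the median relative fold of the members was −0.745 over the 11 tissues. The part of list length in the ranks was not tested. With the 90th percentile of the list as the divisor, mammary gland was highest in 35.5% and lung in 14.9%, and with the deposited fold mammary gland was highest in 52.6%, stomach in 18.2% and colon in 14.5%. The tissue that ranks first in a member therefore depended on the scale, as the bars by scale show. The median member stood at percentile 95.2 of its list in liver and 96.9 in cerebellum, with the other tissues between these values on a scale that ends at 100. The lowest member stood at percentile 80.4 in colon and 92.1 in ovary, since the threshold falls at another percentile in each list.

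**Figure D2:**
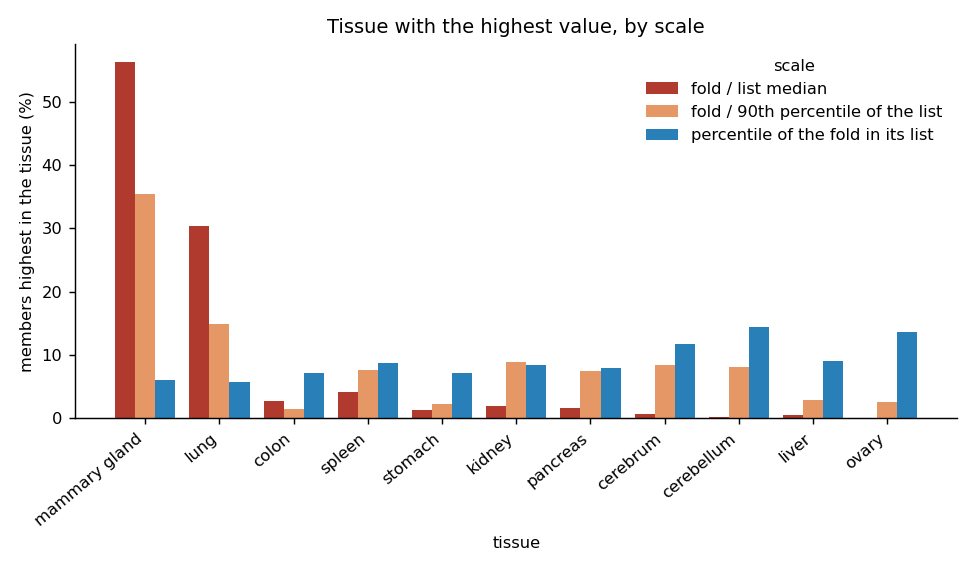
Percent of the 5035 members (vertical axis) in which each tissue (horizontal axis) had the highest value, on 3 scales: fold over list median (red), fold over the 90th percentile of the list (orange) and percentile of the fold in its list (blue). Mammary gland falls from 56.3% to 6.08% between the first scale and the last, and ovary rises from 0 to 13.7%.

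The order of the members by relative fold was compared between tissues, as a description only, since the rule cut these same values at the threshold in every tissue. Spearman's rho of the relative fold over the 5035 members had a median of 0.13 across the 55 pairs of tissues and ran from −0.01 (liver and ovary) to 0.42 (lung and mammary gland). Colon and mammary gland had 0.40, mammary gland and stomach 0.38, colon and lung 0.37, lung and stomach 0.33, and kidney and mammary gland and colon and stomach 0.32 each. The brain pair, cerebrum and cerebellum, had 0.10. In the other shared short regions the same coefficient had a median of 0.65 and ran from 0.33 to 0.80. The threshold removes the lower part of the range in the members alone, so the coefficients of the 2 sets cannot be compared, and the lists share animals and input. Pairs of tissues with input from the same animal had a median of 0.12 and pairs with input from different animals 0.14. On average over its 10 pairs, mammary gland had the highest coefficient, 0.26, and liver (0.076) and ovary (0.079) the lowest.

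The strongest 503 members of each tissue were 9.99% of the set. These sets come from the values the rule used and from lists that share animals and input, so their overlaps are a description only. Between 11.5% and 28.6% of them were shared by a pair of tissues, with a median of 17.5%. Sets of this size picked without regard to each other would share about 9.99%. Of the 5035 members, 2249 (44.7%) were among the strongest 10% of no tissue and 1343 of exactly 1. In at least 6 tissues it held for 56 members, in at least 8 for 11, and in all 11 for 2. These were chr38:21097222-21097892 and chr37:441509-443508, the latter with a relative fold of 2.86 in ovary, 4.57 in the middle tissue and 6.88 in mammary gland.

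The region chr38:21097222-21097892 stood apart from all other members. Its relative fold was 3.96 in cerebrum, 4.23 in ovary, 4.53 in pancreas, 4.54 in cerebellum, 4.87 in spleen, 5.43 in liver, 5.74 in kidney, 6.26 in stomach, 8.64 in colon, 9.31 in lung and 9.31 in mammary gland. The lowest of these was 3.96, where the next member had 3.09 in its lowest tissue, and all 11 values lay above the median member of their tissue. It was 671 bases wide, held a single peak in every tissue, and all 11 summits lay within 18 bases. Its −log10 q-value was lowest in ovary, at 404, and highest in mammary gland, at 2416, where the median members had 67.7 and 253. It is the only member besides chr19:1677931-1681126 with a relative fold of at least 3 in every tissue.

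The next members by the value of their weakest tissue were wider and formed a close series. The region chr19:1677931-1681126 (3196 bases) had 3.09 in ovary, 3.79 in the middle tissue and 5.62 in mammary gland. Another on the same chromosome, chr19:1285428-1288759, had 2.92 in liver, 3.70 in the middle tissue and 5.28 in lung. Both lay in the first 2 Mb of chromosome 19. On chromosome 3, chr3:2840562-2844690 had 2.94 in cerebrum, 3.91 in the middle tissue and 5.79 in lung. On chromosome 11, chr11:70901440-70905590 had 2.92 in cerebrum, 3.42 in the middle tissue and 5.76 in mammary gland, and its summits were spread over 3259 bases. Lung or mammary gland was the highest tissue in all 12 members named by this rule, and in 86.7% of all members. The remaining 7, chr1:24773465-24776712, chr34:9996805-9999419, chr35:3189750-3191313, chr13:6190101-6190969, chr14:56128756-56131343, chr6:75328591-75332113 and chr2:56870235-56874228, had between 2.88 and 2.91 in their lowest tissue. Their highest values lay between 4.93 and 7.41. Of the 12, chr38:21097222-21097892 and chr13:6190101-6190969 were the only ones under 1000 bases, the latter with 869.

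The range between tissues, as the ratio of the highest to the lowest relative fold of a member, had a median of 2.38 and was under 2 in 1118 members (22.2%) and at least 3 in 540 (10.7%). In the other shared short regions the median was 2.56. The widest range was that of chr20:54211710-54212575, 866 bases wide, with 2.01 in pancreas, 2.32 in liver, 3.29 in ovary, 3.52 in cerebrum, 3.71 in cerebellum, 4.57 in spleen, 4.83 in stomach, 5.82 in kidney, 7.22 in mammary gland, 7.28 in colon and 11.6 in lung. Lung was far above the next tissue there, and the region was near the threshold in pancreas. In chr16:10545037-10547331 a pair of tissues stood out, colon with 11.2 and mammary gland with 10.4, against 5.39 in spleen, 4.21 in lung and 2.13 in ovary. In chr13:37402142-37403558 it was mammary gland with 10.4 and stomach with 9.15, against 2.14 in cerebrum. The region chr5:40772348-40773068 reached 10.4 in mammary gland, 6.24 in ovary and 2.33 in liver, and chr16:123167-125549 reached 11.4 in lung, 5.06 in mammary gland and 2.63 in cerebellum. The value in ovary at the chromosome 5 region was the highest that any member had in that tissue.

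At the other end, 5 members were nearly level across tissues. The most even, chr13:38887898-38890337, had between 2.45 in colon and 3.13 in cerebrum, with a middle value of 2.63 and a ratio of 1.28. In chr17:11929397-11929904 the values ran from 2.18 in kidney to 2.78 in stomach, and in chr3:85689589-85692348 from 2.52 in lung to 3.24 in cerebrum. The last 2, chr5:88268634-88271988 and chr37:2032653-2034612, had ratios of 1.31. The highest value among these 5 was 3.26. Low maxima come with the narrow range by which they were picked. None of the 5 was highest in mammary gland or lung, where 86.7% of all members were highest, but they were picked by these same values.

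The member with the highest relative fold of each tissue was looked up after the values were seen. Chromosome 16 held it in 5 of the 11 tissues, and held 194 of the 5035 members. The lists share animals and input, so this count is a description only. These were chr16:59356086-59357044 in cerebellum (6.05), chr16:115830-118134 in cerebrum (7.17), chr16:10545037-10547331 in colon (11.2), chr16:10471026-10472615 in kidney (6.55) and chr16:141407-143689 in spleen (8.82). They fell in 3 places, the first 0.2 Mb, the stretch near 10.5 Mb and the last 1 Mb of peaks of the chromosome. In liver it was the chromosome 38 region (5.43), in lung the chromosome 20 region (11.6), in ovary the chromosome 5 region (6.24) and in stomach chr13:37402142-37403558 (9.15). In mammary gland it was chr6:23990047-23990627 (11.0) and in pancreas chr6:69016366-69018701 (7.49).

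Members were wider than the other shared short regions. Their median width was 2370 bases (middle 50% from 1527 to 3375), against 747 bases (439 to 1262), and together they covered 12.6 Mb. The widest were chr9:6565645-6570642 with 4998 bases, chr4:34753373-34758369 with 4997 and chr1:122112701-122117694 with 4994. The narrowest were chr1:101257150-101257596 with 447 bases, chr16:34249101-34249554 with 454 and chr14:59409155-59409627 with 473. The share of regions that were members rose with every width class, from 0.0348% under 500 bases and 1.24% from 500 to 1000 bases to 13.1% from 2000 to 2500 bases and 36.9% from 4000 to 5000 bases, as the plot by width class shows. A wider region offers more peaks and bases from which its highest fold is taken, and the part of this in the share was not tested. Within the members, Spearman's rho between width and the relative fold of the middle tissue was 0.20, a description only, since the rule cut these folds at the threshold in every list. The middle relative fold had a median of 3.07 in members of 500 to 1000 bases and 3.36 in those of 4000 to 5000 bases. With no upper limit on width, 6997 regions passed the threshold.

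**Figure D3:**
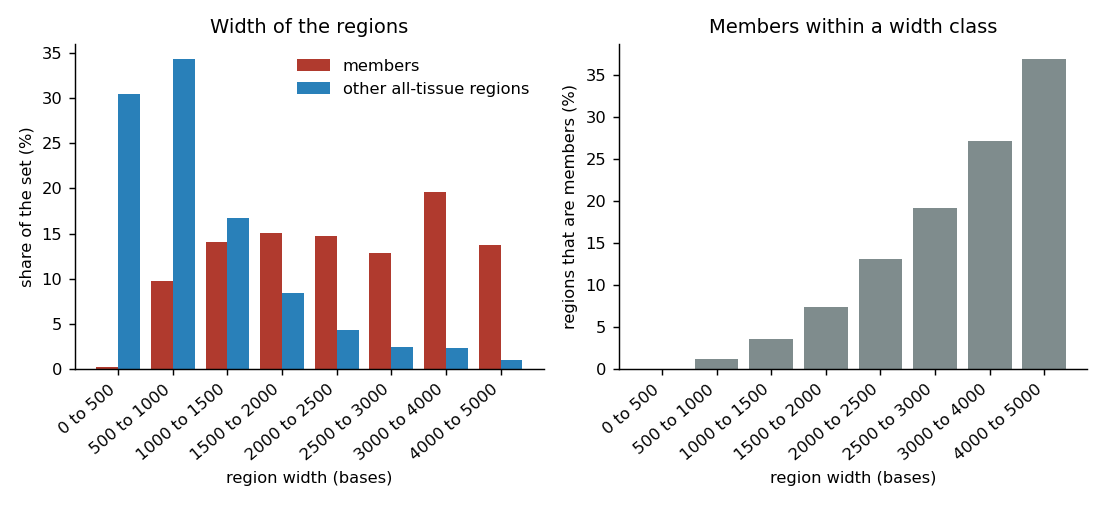
Left, percent of the members (red) and of the other shared short regions (blue) in each class of region width in bases; right, percent of the regions of a width class that are members. Regions under 1000 bases make up most of the blue set, and the share of members rises from 0.0348% to 36.9%.

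Within a member, the lists placed their peaks differently. A single peak in every tissue was found in 2128 members (42.3%), against 70.5% of the other shared short regions, which were narrower. Among regions of 1000 to 2000 bases the order was the opposite, with 68.2% of 1468 members and 37.4% of 28517 others, and it was 20.7% against 10.9% from 2000 bases up. Peaks covered 88.5% of the bases of the members on average over the tissues and 78.3% of those of the other regions, and the difference was present in each width class (87.3% against 77.0% under 1000 bases, 87.4% against 76.2% from 1000 to 2000 bases, 88.8% against 82.5% above). Within each width class, members were thus more fully covered by peaks. They were still the wider regions inside each class, with medians of 800 against 520 bases, 1511 against 1339 and 3125.5 against 2621.

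The tissues covered the members to different extents. Coverage was 93.5% in cerebrum, 92.9% in ovary, 92.8% in kidney, 90.4% in lung and 89.0% in mammary gland. It was 88.3% in liver, 88.2% in cerebellum, 85.6% in colon, 84.96% in spleen, 84.2% in pancreas and 83.9% in stomach. The first 5 lists are those whose shortest peak is 210 to 218 bases long, and the other 6 those with a shortest peak of 175 to 192 bases, so the coverage of these kinds of list did not overlap. Mean coverage was 89.7% ± 4.10 (SD, n = 4) in the tissues with the kidney input animal, while jj8 tissues had 87.8% ± 3.38 (SD, n = 7), a difference of 1.89 points within the spread between tissues (exact permutation test, two-sided, p = 0.418, adjusted p = 0.9). Tissues with 2 female MBD libraries had 87.8% ± 3.98 (SD, n = 4) and those with 1 female and 1 male 88.9% ± 3.60 (SD, n = 7), which also did not pass (exact permutation test, two-sided, p = 0.645, adjusted p = 0.9). With 4 against 7 tissues a p cannot go below 0.00303. The tests treat the tissues as independent, although the kidney input animal is in the MBD titles of every tissue. The difference by sex was 2.45 points within the tissues of the kidney input animal and −4.35 points within those of jj8 (exact permutation test of the difference between them, two-sided, p = 0.183). All these groups hold different tissues, so a difference by sex or input cannot be told apart from one between tissues or animals. Among the 5 lists whose shortest peak exceeds 200 bases, the difference by input was −0.409 points (3 against 2 tissues) and that by sex −1.30 points (2 against 3). Within the others it was −1.97 points by input (1 against 5) and −1.68 points by sex (2 against 4). The exact permutation tests, two-sided, gave p = 0.8 and 0.667 by input, where the smallest p these splits allow is 0.1 and 0.167, so nothing is read from the signs.

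Summits, the points of highest signal inside a peak, were compared because the rule does not use their position. Where a tissue had several peaks in a region, the summit of its peak with the highest fold was taken. The choice of peak thus used the fold of the rule, and the distances can include steps between separate peaks. The 11 summits of a member spanned a median of 863 bases (middle 50% from 356.5 to 1625), against 93 bases in the other shared short regions. Within width classes, where members were still wider, the gap was smaller: from 2000 bases up the medians were 1425 and 1222 bases, and from 1000 to 2000 bases 447 and 431 bases. Under 1000 bases they were 145 in members and 62 in the others, and 33.5% of the members of that class had all summits within 100 bases, against 72.5% of the others. Divided by region width, the median span was 0.472 in members and 0.460 in the others from 2000 bases up. It was 0.307 and 0.320 from 1000 to 2000 bases, and 0.190 and 0.137 under 1000 bases. All summits lay within 20 bases in 6 members (0.119%), none wider than 721 bases, and in 0.491% of the others. Under 1000 bases the order was the opposite, with 1.20% of the members and 0.715% of the others. The region chr5:40772348-40773068 had the smallest span, 6 bases, though its relative fold ranged from 2.33 to 10.4.

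The summit of a tissue lay a median of 26 bases from the median summit of the member in lung, 29 in mammary gland, 33 in colon, 35 in stomach, 37 in spleen, 39 in kidney and 51 in pancreas. The distance was 77 bases in cerebellum, 87 in cerebrum, 144 in liver and 145 in ovary. Tissues in which the members had a low relative fold were those whose summits lay far from the common position, with a Spearman's rho of −0.97 over the 11 tissues between distance and median relative fold. This is a description, since both values come from the same lists. The plot of strength against summit distance shows lung and mammary gland at one end and ovary and liver at the other. In the other shared short regions the distance was 11 to 20 bases in all tissues. These regions were narrower, with a median width of 747 bases against 2370 in members, and the distances were not matched for width. By input, the mean of the tissue medians was 66.0 ± 53.4 bases (SD, n = 4) with the kidney input animal and, in jj8 tissues, 62.7 ± 42.9 (SD, n = 7; exact permutation test, two-sided, p = 0.9, adjusted p = 0.9). By sex, tissues whose MBD libraries were both female averaged 60.5 ± 56.4 bases (SD, n = 4), while mixed tissues averaged 65.9 ± 40.9 (SD, n = 7; exact permutation test, two-sided, p = 0.830, adjusted p = 0.9). The difference by sex was 42.0 bases within the tissues of the kidney input animal and −40.2 within those of jj8 (exact permutation test of the difference between them, two-sided, p = 0.246). As for coverage, the groups hold different tissues, so sex and input cannot be told apart from tissue. Among lists whose shortest peak exceeds 200 bases the differences were 14.5 bases by input and 36.3 by sex, and within the others −14.2 and −43.3.

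**Figure D4:**
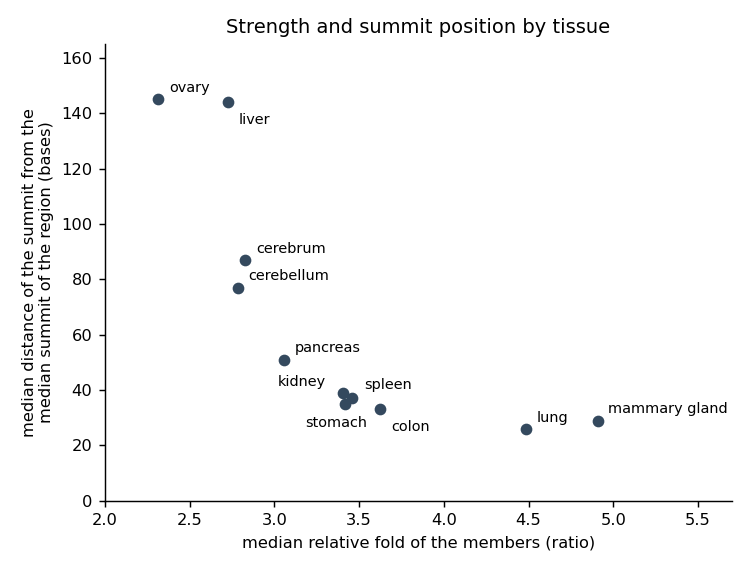
Median distance in bases between the summit of a tissue and the median summit of the member (vertical axis) against the median relative fold of the members in that tissue (horizontal axis), 1 point per tissue. Lung (26 bases) and mammary gland (29 bases) lie at the lower right and liver (144) and ovary (145) at the upper left.

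Members were found on all 38 autosomes, with 2.28 per Mb. Chromosome 18 had the highest density, 3.96 per Mb (221 members), followed by chromosome 2 with 3.66 (313) and chromosome 10 with 3.42 (237). Chromosome 32 had the lowest, 0.490 per Mb (19 members), followed by chromosome 27 with 1.11 (51). As a share of the shared short regions of a chromosome, members made up 6.62% on chromosome 36, 6.20% on chromosome 33 and 6.17% on chromosome 29, and 2.17% on chromosome 32, 2.29% on chromosome 9 and 2.47% on chromosome 30. Chromosome length and density of members were not related, with a Spearman's rho of −0.06 over the 38 chromosomes.

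Toward the ends of chromosomes members were more frequent. Ends are named by coordinate only: the start is the first base of the chromosome and the end the last base of any peak. Dog autosomes have their centromere near one end, but which end that is in these coordinates was not checked. The last 5 Mb held 1521 members, or 30.2% (95% Wilson interval 28.96% to 31.5%), and 16.5% (16.3% to 16.7%) of the other shared short regions. The first 5 Mb held 838 members, or 16.6% (15.6% to 17.7%), against 11.7% (11.6% to 11.9%). Members cluster along the chromosomes, so regions are not independent. These intervals cover counting error only and are no test. The share of shared short regions that were members was 8.85% in the last 1 Mb, 9.73% from 1 to 2 Mb, 6.01% from 2 to 5 Mb and 3.27% from 5 to 10 Mb before the end, and it was lowest, 2.49%, from 10 to 20 Mb. The share in the last 5 Mb was higher in members than in the other regions on 29 of 38 chromosomes, and the share in the first 5 Mb on 16 of 38.

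**Figure D5:**
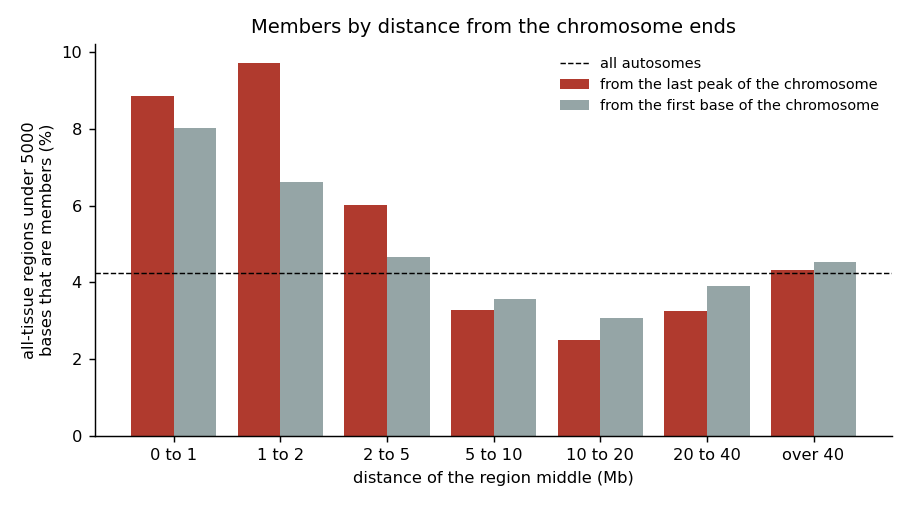
Percent of the shared short regions that are members, by distance in Mb of the region's middle from the last peak of its chromosome (red) and from the first base (grey); the dashed line is the percent over all autosomes, 4.26%. The bars are highest within 2 Mb of either end, at 8.85% and 9.73% before the last peak and 8.02% and 6.61% after the first base.

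The higher share in the last 5 Mb moved with width, and members were the wider regions within each class too. Among regions of 2000 bases and more, 36.2% of 3066 members and 29.3% of 11469 others lay in the last 5 Mb. From 1000 to 2000 bases it was 23.9% of 1468 members and 20.8% of 28517 others, and under 1000 bases 12.2% of 501 members and 12.8% of 73298 others, so the share was no higher in the members under 1000 bases. The share also rose with the number of lists in which a region passed the threshold: 11.9% for regions past it in no list, 17.0% for 1 to 3 lists, 18.4% for 4 to 6, 22.1% for 7 to 9 and 27.9% for 10. The median width of these classes rose from 468 to 1873 bases. The 504 members strongest in their weakest tissue had 34.1% in the last 5 Mb and the rest 29.8%. Their median width was 2846 bases, against 2370 over all members.

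Chromosomes differed in which end was rich in members. In the last 5 Mb lay 77.6% of the members of chromosome 38 (43.2% of its other shared short regions), 77.1% of chromosome 29 (41.5%), 67.9% of chromosome 31 (42.7%) and 66.7% of chromosome 28 (28.6%). In the first 5 Mb lay 70.6% of the members of chromosome 27 (31.7% of the others), 65.3% of chromosome 35 (40.9%), 58.3% of chromosome 22 (21.9%) and 51.9% of chromosome 17 (22.5%). On chromosome 13 the last 5 Mb held 1 of 139 members and the first 5 Mb 3, and its other regions were also mostly interior, with 4.01% in the last and 6.93% in the first 5 Mb.

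Members were unevenly spread along the chromosomes. A member was present in 1290 of the 2220 windows of 1 Mb that held any union region (58.1%), and the 134 windows with 10 or more members held 2248 members (44.6%). These windows held 16.9% of the other shared short regions, and the 134 windows richest in the others held 20.8% of them. The windows were picked by their counts and the members are far fewer, so these shares are a description. Neighbouring members of a chromosome were a median of 71.9 kb apart, and 857 of 4997 neighbours (17.2%) were under 10 kb apart. The richest window, on chromosome 1 from 121000001 to 122000000, held 37 members beside 121 other shared short regions. The first 1 Mb held 36 members on chromosome 17, 34 on chromosome 16 and 30 on chromosome 18. Windows away from the ends were rich too, with 34 members on chromosome 2 from 33000001 to 34000000, 33 on the same chromosome from 56000001 to 57000000 and 29 on chromosome 10 from 17000001 to 18000000. The widest stretch without a member was 18.99 Mb on chromosome 27, from 7005831 to 25990996.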

How the data were processed

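MBD-seq peak lists of 11 dog tissues were analysed, 1 list per tissue, named in the labels of both MBD libraries. The build is CanFam3.1, per the submitters' processing notes; the aligner, the peak caller, the filters and the way the 2 libraries were combined are not given in the sources used here. The deposited lists have no header, so columns were read by their place. The ratio used as fold enrichment, the −log10 q-values and the summit offsets were taken as deposited by the authors; the control behind the fold is not given in the sources used here. The read depth is unknown.

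Overlapping or touching peaks of all lists were merged into union regions. The highest fold of a tissue in a region was divided by the median of its list. Members and lists were chosen with earlier results of these data known. Named regions are the 12 with the highest lowest value, the 5 with the widest and the 5 with the narrowest range, the 3 widest and 3 narrowest, and 3 on each side of the threshold; regions taken from the top of a tissue or window were chosen after their values were seen. For differences between tissue groups, exact permutation tests, two-sided, enumerated all 330 splits, with Benjamini-Hochberg adjustment over 4 tests. Tests of the sex difference between input animals enumerated 126 arrangements, and those by input within kinds of list 10 and 6 splits, all without adjustment. Shares carry 95% Wilson intervals, which cover counting error only and treat regions as independent. The computations were tested on simulated lists. Python 3.11.15, numpy 2.4.6, pandas 2.3.3 and scipy 1.17.1 were used. Genes and sequences at the regions were not analysed here, since no annotation of the build was used.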

Additional observations from a re-analysis of the deposited data

Results flagged for a closer look

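In 28 groups of tissues examined for a far value, 8 had one. Chance flags about 1 in 20 independent groups, but these groups overlap, shares of the members sum to 100% over the tissues, and 7 of the 8 values come from the folds that chose the members, so nothing is read from their number. Lung had a median relative fold of the members, 4.49, far above the other 6 tissues with 1 female and 1 male library. Mammary gland, with 56.3% of the members highest in it, stood apart both among the 4 tissues of the kidney input animal and among the 4 with 2 female libraries, and lung, with 30.4%, among the 7 tissues with the input jj8 and among the 7 with 1 library of each sex. Ovary, the lowest tissue in 45.0% of the members, stood apart in both of its groups of 4, and its summit distance of 145 bases did so among the tissues with 2 female libraries.

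Chromosome X was outside the rule. Of its 5150 regions under 5000 bases with a peak in all lists, 155 passed the same threshold, or 3.01% (95% Wilson interval 2.58% to 3.51%). In the first 7 Mb it was 82 of 1134 regions (7.23%), and past 7 Mb 73 of 4016 (1.82%).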

How the results depend on the processing

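The number of members depended on the settings. It was 19726 at 1.5 times the list median, 2 at 3 times, 653 with the list mean in place of the median, 2853 with the mean fold of the peaks in a region, 1969 under 2000 bases and 25367 with the −log10 q-value in place of the fold, and 4875 to 6997 under the other settings that kept all tissues. Leaving out 1 tissue gave 5080 to 8148 members, the highest without ovary. The share highest in mammary gland or lung, 86.7%, was 11.8% by percentile in the list, 50.3% over the 90th percentile, 60.1% with the deposited fold, 84.4% under 2000 bases and 72.9% at 1.5 times the median. These scales were chosen after seeing the data.

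The share of members near the last peak of the chromosome, 30.2% in 5 Mb, was 17.4% in 2 Mb (7.58% of the others), 38.4% in 10 Mb (27.3%), 20.9% under 2000 bases (15.0%) and 50% of 2 members at 3 times the median (17.1%), and 28.9% to 30.2% when a tissue was left out. None of the 4 exact permutation tests passed under any setting run, with a lowest adjusted p of 0.406. With the 2 members left at 3 times the median, the differences were −3.25 points of coverage by input, and −20.9 bases by input and 50.6 bases by sex for summits. Leaving out a tissue moved coverage by input between 0.838 and 3.79 points and by sex between −2.99 and 0.239, and summit distance by input between −18.1 and 18.0 bases and by sex between −26.7 and 8.42. The cause of these changes was not tested.

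No paired analysis was possible because both libraries of a tissue share 1 list. Folds of single lists have no known depth, so small differences between tissues cannot be told from counting error.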
